A study of Mus musculus with 6 samples.

Results

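The 10 genes described here are those of the MHC class II antigen presentation machinery in the mouse: the classical class II chains H2-Aa (A alpha), H2-Ab1 (A beta) and H2-Eb1 (E beta), the invariant chain Cd74, the peptide-exchange chaperone H2-DM (H2-DMa, H2-DMb1 and H2-DMb2), its inhibitor H2-DO (H2-Oa and H2-Ob), and the class II transactivator Ciita. They were taken by symbol, each matching 1 row, from the 31053 genes of the count tables. The libraries were droplet single-cell RNA-seq, made with 10x Genomics 3′ chemistry, which counts a transcript once at its 3′ end by a molecular identifier (UMI). The source named on every label is YUMM2.1, a mouse melanoma line, and the labels do not say whether a culture or a tumour was sampled, but most of the cells carried immune cell markers.

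The groups are Empty vector (EV) and Bmal1 WT (WT). Bmal1 is the protein of the gene Arntl, a core circadian transcription factor. The labels give no dose, time, animal or sex, and name no promoter for the vectors. Each group was 1 droplet channel in which 3 samples had been marked with antibody hashtags, h1, h7 and h8 in EV and h3, h5 and h9 in WT. The group and the channel therefore cannot be told apart, and since no label says that the hashtagged samples were separate animals, tumours or cultures, every p-value below measures only the spread between these samples. The files labelled Bmal1 bHLH held the same values as the WT files, so they were counted once, as WT.

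MHC class II molecules show peptides from endocytosed proteins to CD4 T cells. New alpha and beta chains assemble on the invariant chain in the endoplasmic reticulum, which blocks the groove and directs the complex to endosomes, where proteases cut it down to the CLIP fragment. H2-DM then exchanges CLIP for peptides, and H2-DO holds H2-DM back. Ciita switches on the class II chains, the invariant chain and H2-DM, constitutively in dendritic cells and B cells and after interferon gamma in many other cells. Mouse T cells are not known to make the class II chains, so their values serve here as a background for those chains and for Cd74. For the other members they serve only as a comparison.

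The EV library held 4147 barcodes with 34232927 gene UMIs and the WT library 2785 barcodes with 39561569. Of these, 3978 and 2386 cells were kept, and 3222 and 1621 of them carried exactly 1 hashtag; 5 barcodes occurred in both libraries. The members' UMIs ranged from 524 (H2-Ob) to 89103 (Cd74) in EV and from 318 (H2-Ob) to 71252 (Cd74) in WT. Cells were put into classes, named "-like", where at least 3 markers of a class were detected. Its share of markers also had to lead every other class by 15 percentage points. None of the members is a marker. Every class had at least 2 of its own markers and none of another class among its 10 leading genes. That follows largely from the gates and is no independent check of them. The gates placed 2586 EV cells and 1257 WT cells in a class, with 226 and 167 more left as ambiguous. Arntl did not check the labels. In melanoma-like cells it stood at 55.5, 113 and 54.1 CPM in EV h1, h7 and h8, and at 41.9, 67.7 and 62.7 CPM in WT h3, h5 and h9, so the groups overlapped, the h7 value resting on 3 cells. CPM is the number of a gene's UMIs for every 1e6 gene UMIs of the same cells.

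Of the 10 genes, 8 lie within 224 kb of chromosome 17, from H2-Oa at chr17:34092340 to the end of H2-Eb1 at chr17:34316674 (GENCODE M21, GRCm38). Ciita is on chromosome 16 (chr16:10480059-10528418) and Cd74 is on neither chromosome. H2-DMa overlaps Brd2 and H2-Oa overlaps BC051537 in the annotation, and no source used here says whether the counting used strand, so reads of an overlapping pair may not be separable. H2-DMb1 and H2-DMb2 are near copies, and 13.2% and 12.0% of the 90-base windows in their transcripts are shared, so their split is less certain than that of the other genes.

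Class II promoters are known for an X box and a Y box, bound by the RFX, CREB and NF-Y factors on which Ciita assembles. RefSeq promoters (GRCm38.p6) were matched for 7 members, in 8 windows, and 150 bases before the annotated start were read; Cd74, H2-Ab1 and Ciita had no entry. Sequences are printed because most of the members rose and fell together over the cell classes, H2-Oa and H2-Ob less closely than the rest. Capitals mark the Y box TGATTGG and the X box, spelled AAC, any 2 bases and then ATGATG. Both were looked for on both strands, with letters that were chosen with these sequences in view.
H2-DMb1, chr17:34153041-34153190, plus strand: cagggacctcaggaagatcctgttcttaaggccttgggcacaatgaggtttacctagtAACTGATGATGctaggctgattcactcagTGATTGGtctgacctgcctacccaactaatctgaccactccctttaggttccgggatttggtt
H2-DMb2, chr17:34145099-34145248, plus strand: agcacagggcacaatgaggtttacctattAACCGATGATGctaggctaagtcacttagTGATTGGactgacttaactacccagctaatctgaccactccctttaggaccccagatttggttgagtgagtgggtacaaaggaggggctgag
H2-Ob, chr17:34238755-34238904, plus strand: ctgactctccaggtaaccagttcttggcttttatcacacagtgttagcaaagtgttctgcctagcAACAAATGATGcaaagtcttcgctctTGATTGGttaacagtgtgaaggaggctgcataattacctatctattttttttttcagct
H2-Eb1, chr17:34305717-34305866, plus strand: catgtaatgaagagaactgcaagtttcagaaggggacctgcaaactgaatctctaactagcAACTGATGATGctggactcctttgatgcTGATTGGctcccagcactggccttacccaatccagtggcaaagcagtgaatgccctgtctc
H2-Aa, chr17:34287824-34287973, minus strand: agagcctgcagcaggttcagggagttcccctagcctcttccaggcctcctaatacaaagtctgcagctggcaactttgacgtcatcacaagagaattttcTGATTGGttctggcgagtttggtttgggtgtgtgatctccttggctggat
H2-Oa, chr17:34092229-34092378, plus strand: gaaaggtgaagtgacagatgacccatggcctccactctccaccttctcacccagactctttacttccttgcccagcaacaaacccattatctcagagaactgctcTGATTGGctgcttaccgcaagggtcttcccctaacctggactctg
H2-DMb1, H2-DMb2, H2-Ob and H2-Eb1 held both boxes in the same orientation, with starts 29, 29, 26 and 28 bases apart. H2-Aa and H2-Oa held the Y box string but not the X box string as spelled here. An X box spelled otherwise was not looked for, so this does not say that they lack one. The 2 windows of H2-DMa, chr17:34122682-34122831 and chr17:34125368-34125517, held neither string. Both lie inside the annotated gene (chr17:34119541-34139101), so bases before its first base were not read and other starts of H2-DMa remain unread. The Y box string lay in 5.71% of all 32851 windows of this length and the X box string in 0.0791%. Both strings stood together in 7 windows in the table, 0.0213%, and 4 of these belong to the members. A match describes letters and not a used site.

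Cd74, the invariant chain, was highest in Mgl2 dendritic-like cells (Mgl2, Epcam, Ccl17) and in cDC1-like cells (Xcr1, Clec9a), the cross-presenting dendritic subset. The mean was 18799 ± 1531 CPM in the former and 16606 ± 1692 CPM in the latter (SD, n = 5 hashtag replicates each), ranges that overlap. C1q macrophage-like cells followed with 9493, 13245 and 18868 CPM in 3 replicates, and 1 replicate of Cd209a dendritic-like cells had 11159.6 CPM. The C1q values overlapped those of both dendritic classes. Well below these came non-classical monocyte-like cells at 3641 ± 880 CPM (n = 3), Arg1 or Nos2 monocyte-macrophage-like cells at 3062 ± 1953 CPM (n = 4), mature dendritic-like cells at 3052 ± 553 CPM (n = 6) and plasmacytoid dendritic-like cells at 2659.9 ± 1018 CPM (n = 3), whose replicate values overlapped. Classical monocyte-like cells had 1344 ± 766 CPM (n = 6), T-like cells 339 ± 139 CPM (n = 6), NK-like cells 39.7 ± 26.4 CPM (n = 6), melanoma-like cells 11.6 ± 7.52 CPM (n = 5) and fibroblast-like cells 4.67 ± 3.67 CPM (n = 4). Classical monocyte-like values ran from 202 to 2364 CPM and T-like values from 132 to 506 CPM, so these neighbours overlapped too, as did melanoma-like with NK-like and fibroblast-like values.

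**Figure D1:**
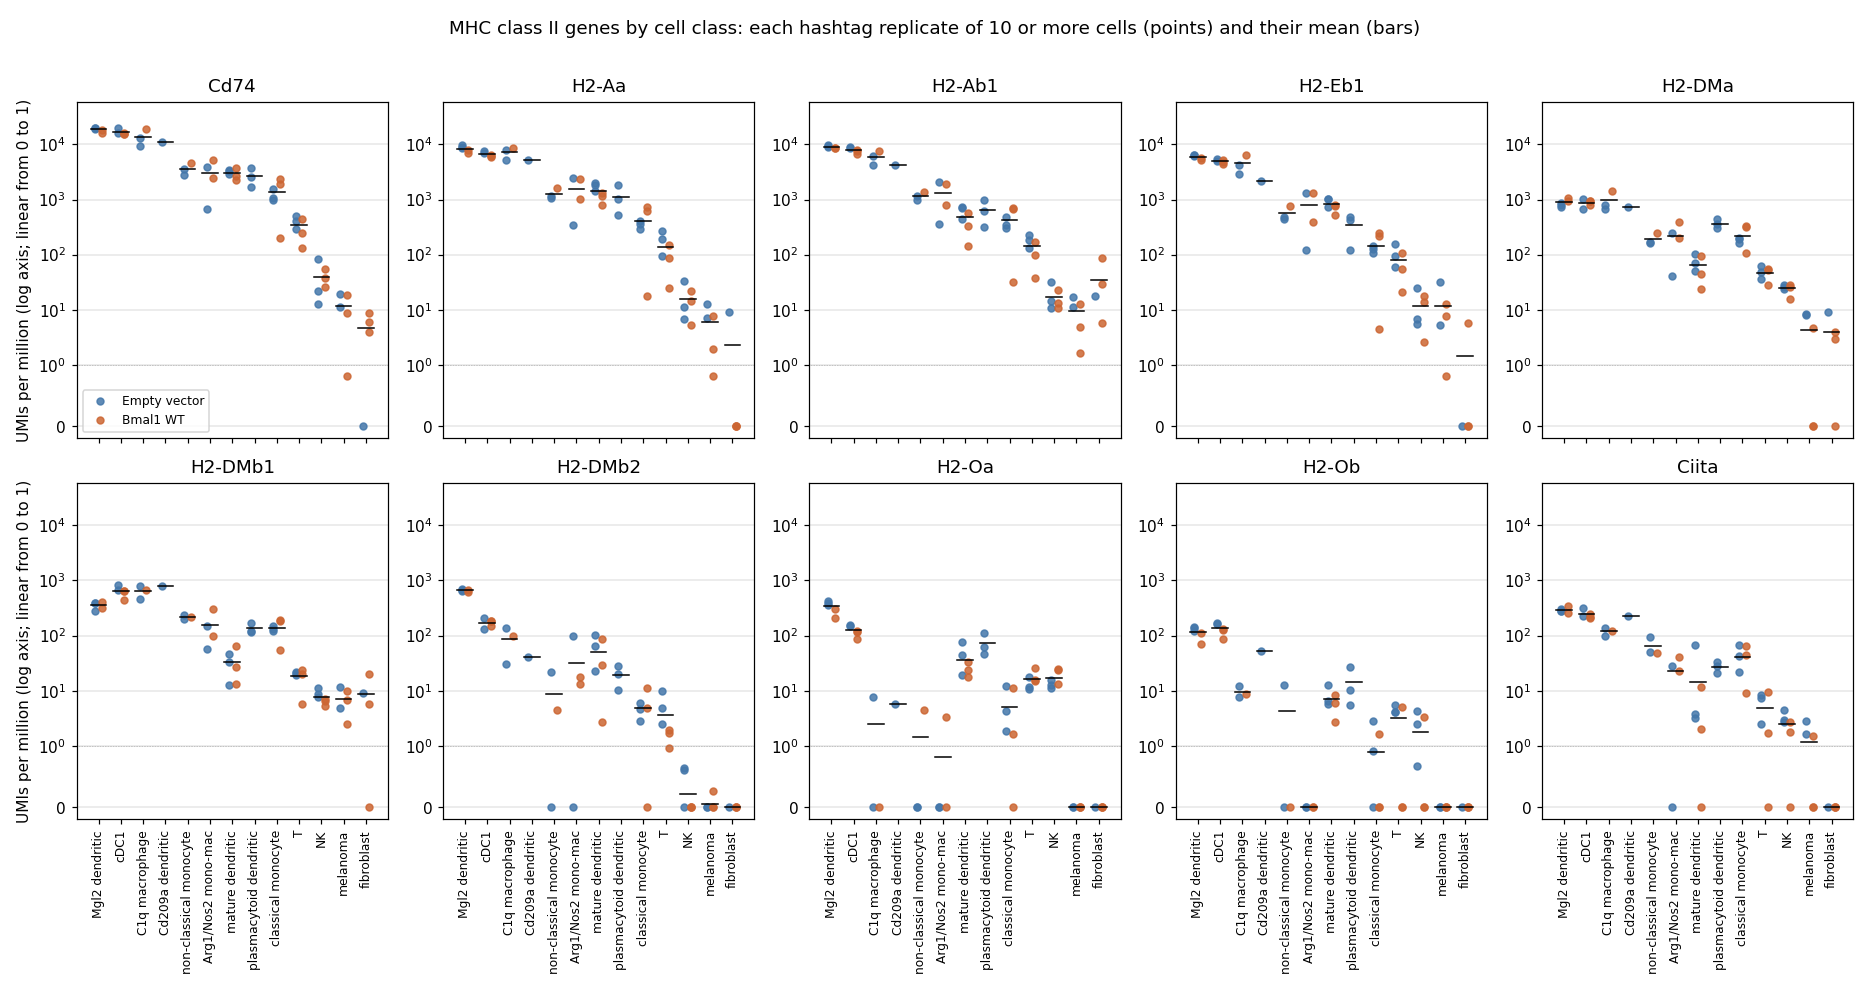
Each panel plots 1 gene, with CPM on a symmetric log axis for every hashtag replicate of at least 10 cells (points) by cell class. Cd74 runs from 20228 CPM in Mgl2 dendritic-like EV h1 to 0 in 1 fibroblast-like replicate, while H2-Oa is at 0 in every melanoma-like and fibroblast-like replicate.

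The 3 classical chain genes were led by the same classes. H2-Aa stood at 8425 ± 992 CPM in Mgl2 dendritic-like, 7254 ± 1792 in C1q macrophage-like and 6642 ± 655 in cDC1-like cells, and at 1403 ± 427 CPM in mature dendritic-like cells. H2-Eb1 stood at 6028 ± 529, 4596 ± 1797, 5019.6 ± 399 and 814 ± 185 CPM in the same 4 classes. H2-Ab1 was 9084 ± 465 CPM in Mgl2 dendritic-like and 7959.9 ± 835 CPM in cDC1-like cells, and 488 ± 226 CPM in mature dendritic-like cells. A few classes held most of these transcripts. Mgl2 dendritic-like cells were 3.01% of the hashtagged EV cells and held 41.6% of their Cd74 UMIs, and 2.84% of the WT cells with 23.2%. The cDC1-like cells were 0.962% of the EV cells with 9.79% of the Cd74 UMIs, and 4.07% of the WT cells with 28.3%. Ambiguous cells, which carried markers of more than 1 class, held a further 13.6% and 23.7%.

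The peptide-exchange genes and their inhibitors were spread in other ways. H2-DMa, the alpha chain of H2-DM, was alike in C1q macrophage-like (965 ± 407 CPM), Mgl2 dendritic-like (886 ± 133 CPM) and cDC1-like cells (872 ± 131 CPM). H2-DMb1, the first beta chain gene, was at 650 ± 144 CPM in cDC1-like and 646 ± 159 CPM in C1q macrophage-like cells but at 356 ± 55.2 CPM in Mgl2 dendritic-like cells. H2-DMb2, the second beta chain gene, went the other way, with 676, 705 and 657 CPM in the EV replicates and 622 and 672 CPM in the WT replicates of Mgl2 dendritic-like cells, against 173 ± 30.8 CPM in cDC1-like and 88.4 ± 54.4 CPM in C1q macrophage-like cells. No cDC1-like replicate passed 211 CPM, so the groups did not overlap. H2-DMb2 was also among the 10 leading genes of the Mgl2 dendritic-like class, which held 68.3% of the H2-DMb2 UMIs in EV and 53.0% in WT. No test was set for Mgl2 dendritic-like against cDC1-like cells.

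H2-Oa and H2-Ob, the H2-DO chains, separated the presenting cells more sharply. H2-Oa stood at 337 ± 83.7 CPM in Mgl2 dendritic-like cells, 126 ± 28.1 CPM in cDC1-like cells, 73.5 ± 34 CPM in plasmacytoid dendritic-like cells and 35.6 ± 22.1 CPM in mature dendritic-like cells. It was nearly missing from macrophages and monocytes, with 2.53 ± 4.38 CPM in C1q macrophage-like and 0.825 ± 1.65 CPM in Arg1 or Nos2 monocyte-macrophage-like cells. H2-Ob stood at 135 ± 32.3 CPM in cDC1-like cells and 117 ± 28.1 CPM in Mgl2 dendritic-like cells, and at 9.46 ± 2.29 CPM in C1q macrophage-like cells. Ciita followed the classical chains more closely, with 292 ± 31.3 CPM in Mgl2 dendritic-like, 244 ± 42.8 CPM in cDC1-like, 120 ± 19.9 CPM in C1q macrophage-like, 41.3 ± 22.7 CPM in classical monocyte-like and 27.4 ± 6.48 CPM in plasmacytoid dendritic-like cells. A UMI of Ciita was found in 87 of 97 EV and 41 of 46 WT Mgl2 dendritic-like cells, and in 20 of 31 EV and 46 of 66 WT cDC1-like cells.

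B cells are textbook class II cells, but only 6 EV and 3 WT cells were B-like, with 16601 and 7754 UMIs in all, so they are given per library with an exact Poisson interval that covers counting error only. Cd74 was 10421 CPM (95% interval 8926 to 12095) in EV and 10317 CPM (8181 to 12841) in WT. H2-Ob was 663 CPM (331 to 1186) and 645 CPM (209 to 1505), from 11 and 5 UMIs, and H2-DMb2 had the same counts. These H2-Ob levels lie above the highest H2-Ob replicate of cDC1-like cells, 167 CPM. B-like cells could not be compared with cDC1-like cells by a test because no replicate held 10 of them.

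Mature dendritic-like cells (Ccr7, Fscn1, Ccl22), the migratory state that dendritic cells enter after activation, had less of every member than cDC1-like cells. All 10 members were higher in cDC1-like cells at an adjusted p under 0.05 (edgeR's quasi-likelihood test on replicate sums, with the hashtag replicate as a block, Benjamini-Hochberg over 11604 genes), where 18.8% of all genes tested were called higher. The members' median log2 difference was 3.19, against 0.03 for all genes. The difference was unequal between them. Ciita, with a log2 difference of 4.56 (SE 0.44, adjusted p = 2.93e-12), H2-DMb1 with 4.41, H2-Ob with 4.40, H2-Ab1 with 4.06 (SE 0.42, adjusted p = 9.30e-12) and H2-DMa with 3.80 stood at one end. Cd74 with 2.42 (SE 0.36, adjusted p = 1.70e-07), H2-Aa with 2.24 (SE 0.39, adjusted p = 5.60e-06), H2-Eb1 with 2.59, H2-DMb2 with 2.06 and H2-Oa with 1.82 stood at the other.

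The replicate values show this for the invariant chain. In mature dendritic-like cells Cd74 was 2893, 3412 and 3243 CPM in EV and 3812, 2254 and 2698 CPM in WT. In cDC1-like cells it was 16422 and 19536 CPM in EV and 16148, 15491 and 15432 CPM in WT. H2-Ab1 was 437, 721 and 712 CPM in EV and 336, 144 and 576 CPM in WT mature dendritic-like cells, against 8803 and 8724 CPM in EV and 7556, 6806 and 7909.5 CPM in WT cDC1-like cells. For both genes the classes were far apart in every replicate.

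The mature dendritic-like cells were not uniform. The median cell had 1483 Cd74 CPM in EV and 1267 in WT, while 1 cell in 10 had more than 10282 and 6263 CPM. The 3 cells with most H2-Ab1 UMIs held 34.1% of those UMIs in EV and 50.3% in WT, where for Cd74 the shares were 18.2% and 30.1%. Ciita was found in 7 of 134 EV and 3 of 93 WT mature dendritic-like cells, with 28 UMIs in all, and 18 of these were in 1 cell of EV h7, which had 17891 UMIs, 151 of them of mature dendritic markers, and 14 of non-classical monocyte markers. The Ciita level of mature dendritic-like cells, 3.2, 66.7 and 3.82 CPM in EV and 2.05, 0 and 11.8 CPM in WT, was thus set in h7 by that cell. The log2 difference of Ciita between cDC1-like and mature dendritic-like cells ran from 4.19 to 6.27 over the alternatives, all of which kept its call.

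Set against the invariant chain within the same cells, the mature dendritic-like class had fewer UMIs of H2-Ab1, H2-DMa, H2-DMb1 and H2-Ob than the cDC1-like class. It had 15.8 ± 6.85 H2-Ab1 UMIs per 100 Cd74 UMIs (SD, n = 6), against 48.0 ± 4.22 in cDC1-like, 48.5 ± 2.77 in Mgl2 dendritic-like and 43.9 ± 3.09 in C1q macrophage-like cells. Its highest replicate, 21.9, lay below the lowest cDC1-like replicate, 43.9. For H2-Aa, the partner chain, the ratio was 46.0 ± 11.2 in mature dendritic-like and 40.2 ± 3.93 in cDC1-like cells, which overlapped, and for H2-Eb1 it was 26.7 ± 4.25 and 30.3 ± 2.22. H2-DMa stood at 2.11 ± 0.998 per 100 Cd74 UMIs in mature dendritic-like cells and at 5.26 ± 0.723 in cDC1-like cells. The H2-DMb1 ratio was 1.11 ± 0.739 and 3.92 ± 0.852 in the same classes, the H2-Ob ratio 0.220 ± 0.0841 and 0.809 ± 0.161, and the Ciita ratio 0.445 ± 0.754 and 1.48 ± 0.285. The replicates of the 2 classes overlapped for Ciita but not for H2-Ab1, H2-DMa, H2-DMb1 or H2-Ob. The mean ratios of H2-Oa (1.14 ± 0.598 against 0.755 ± 0.144) and H2-DMb2 (1.65 ± 1.30 against 1.04 ± 0.149) were higher in mature dendritic-like cells, with overlapping replicates. How many of all genes had ratios without overlap was not counted. Plasmacytoid dendritic-like cells had 14.5 ± 2.88 H2-DMa UMIs per 100 Cd74 UMIs (n = 3), and 3.09 ± 1.63 H2-Oa UMIs against 0.755 ± 0.144 in cDC1-like cells. Their H2-Ab1 ratio was 23.1 ± 3.80, with replicates from 18.8 to 26.1 that overlapped the mature dendritic-like values. Mgl2 dendritic-like cells had 3.56 ± 0.313 H2-DMb2 UMIs and cDC1-like cells 1.04 ± 0.149. These ratios compare classes for 1 gene pair, and not the abundance of 1 gene with another.

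**Figure D2:**
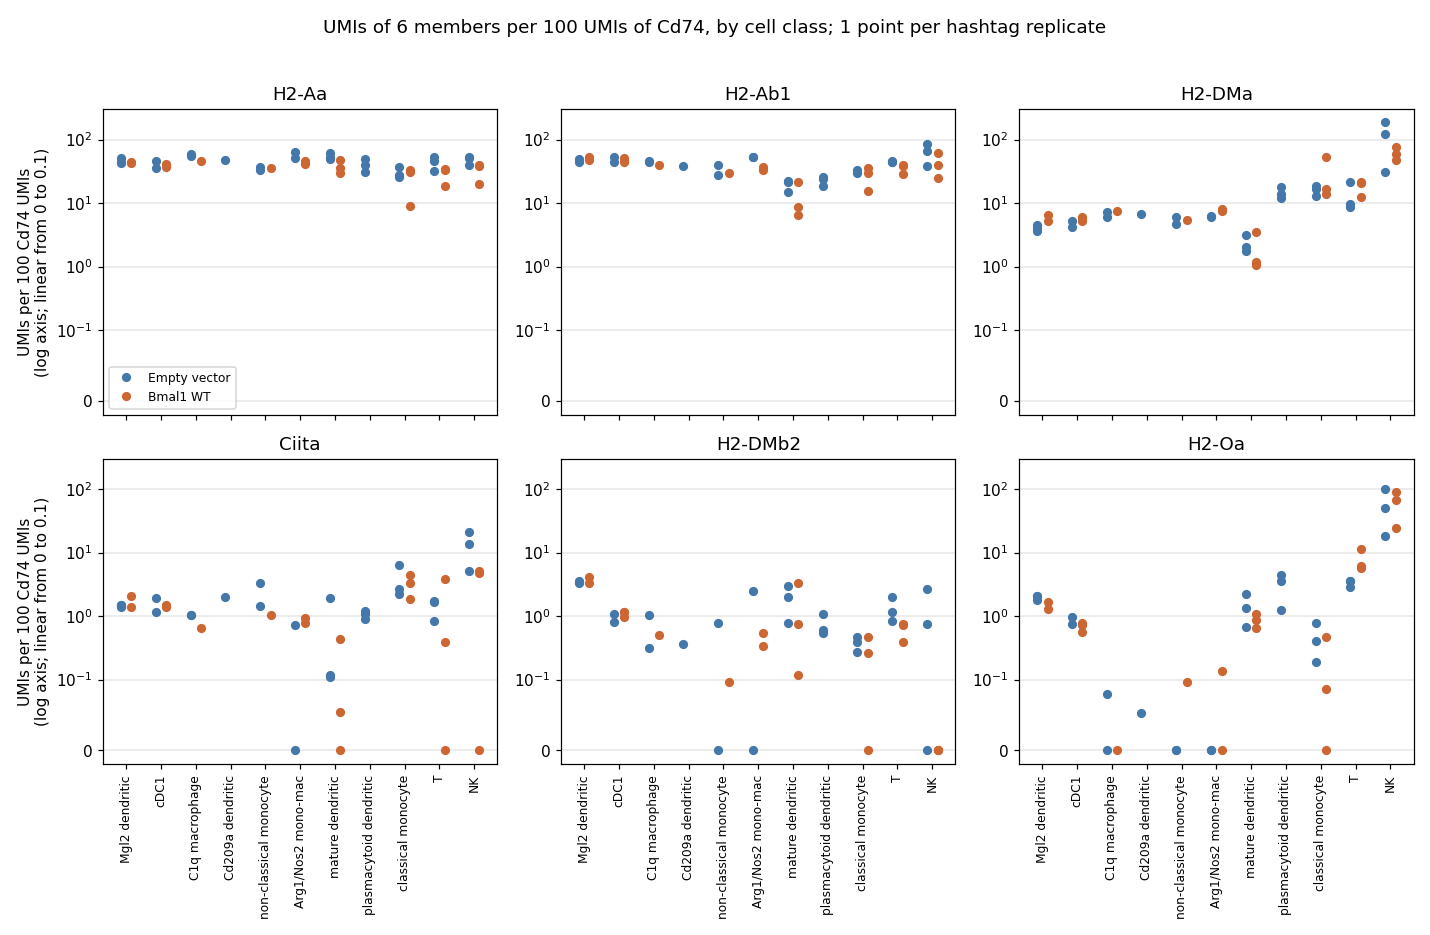
Each panel plots the UMIs of 1 member per 100 Cd74 UMIs in the same cells, per hashtag replicate (points) by cell class. H2-Ab1 in the 6 mature dendritic-like replicates lies between 6.40 and 21.9, below every cDC1-like replicate.

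Of the other genes of the pathway, those that trim the invariant chain and process antigen went against the members. Of 7 measured protease genes, 5 were lower in cDC1-like than in mature dendritic-like cells, where 16.0% of all genes were called lower, and none higher: the asparaginyl endopeptidase Lgmn (log2 difference -3.38), the cathepsins Ctss (-1.20), Ctsh (-1.01) and Ctsb (-0.88), and Sppl2a (-0.70), which clears the last invariant chain fragment from the membrane. Ctsl, at 0.24 (adjusted p = 0.868), did not pass. Of the 5 genes of class II turnover and costimulation, 1 was higher and 4 lower. March1, the ubiquitin ligase that sends surface class II to lysosomes, stood at 93.6 ± 18.8 CPM in cDC1-like and 3.92 ± 9.60 CPM in mature dendritic-like cells (log2 difference 5.77), where 1 WT replicate held all 4 of its UMIs. Cd80 (-4.55), Cd40 (-3.29), Cd83 (-1.35) and Cd86 (-0.71), costimulatory or maturation molecules, were lower in cDC1-like cells.

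Among 15 genes of class II transcription, 4 were higher in cDC1-like than in mature dendritic-like cells and 6 lower, where 18.8% and 16.0% of all genes were. The interferon gamma receptor chain Ifngr1 (log2 difference 2.07), the myeloid factor Spi1 (1.22), the NF-Y subunit Nfyb (0.85) and Irf8 (0.80), which cDC1 need to form, were higher. Among the lower were Irf1 (-3.30), Socs1 (-1.26), Creb1 (-0.97), Nfya (-0.89) and Irf4, of which cDC1-like cells held 1 UMI and mature dendritic-like cells 66 in EV and 52 in WT (45.5 ± 24.0 CPM). The other class II gene measured, H2-Eb2, was lower too, at -2.03 (adjusted p = 0.022). The list medians were -0.39 for transcription, -1.01 for processing and -1.35 for turnover and costimulation, against 0.03 for all genes.

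C1q macrophage-like cells (C1qa, C1qb, Trem2) were close to cDC1-like cells in the invariant chain and the classical chains but not in H2-DO. Cd74 differed by -0.29 on the log2 scale (SE 0.44, adjusted p = 0.769), H2-Aa by 0.13, H2-Eb1 by -0.14, H2-Ab1 by -0.41 and H2-DMa by 0.14, none of which passed the test. Their SEs were 0.33 to 0.48, so a difference of that size could not be shown or dismissed. Only H2-Oa (adjusted p = 1.23e-06) and H2-Ob (log2 difference -3.82, SE 0.57, adjusted p = 1.73e-06) were lower, 2 of 10 members, where 5.42% of all genes were called lower. H2-Oa counted 1, 0 and 0 UMIs in the 3 replicates, and over all C1q macrophage-like cells of the EV library it was 6.07 CPM from 2 UMIs (exact Poisson 95% interval 0.735 to 21.9), against 126 ± 28.1 CPM in cDC1-like cells. H2-Ob counted 1, 2 and 1 UMIs. Ciita, at -1.29 (SE 0.49, adjusted p = 0.0673), did not pass here and did under TMM scaling and without the high-Cd74 cells described below. The members' median was -0.35, against -0.02 for all genes.

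Every one of the 7 measured processing genes was higher in C1q macrophage-like than in cDC1-like cells, where 9.31% of all genes were called higher: Lgmn by 6.95 on the log2 scale, Ctsd by 5.91, Ctsl by 4.995, Ctss by 3.84, Ctsb by 3.69, Ctsh by 1.59 and Sppl2a by 0.78. Ctss, the protease known for the last cuts of the invariant chain, stood at 3823 ± 789 CPM against 287 ± 43.4 CPM. None of the 5 turnover and costimulation genes passed, with Cd83 at 0.37 and Cd86 at -0.07. In transcription 4 of 15 were higher, among them Irf1 (1.41), Ifngr2 (1.18) and Irf4, whose cDC1-like count was 1 UMI. Irf8 (-3.16) and Nfya (-1.47) were lower, and Ifngr1 was at 0.05 (adjusted p = 0.999). The macrophage class rests on EV h1, EV h7 and WT h5, with 14, 14 and 12 cells.

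Plasmacytoid dendritic-like cells (Siglech, Ccr9), the interferon-producing subset, had less of 9 of the 10 members than cDC1-like cells, where 6.97% of all genes were called lower. The 9 were H2-Eb1 (log2 difference -3.92), H2-Ab1 (-3.78), H2-Ob (-3.57), Ciita (-3.39), H2-DMb2 (-3.27), H2-Aa (-2.74), Cd74 (-2.67), H2-DMb1 (-2.32) and H2-DMa (-1.18, SE 0.36, adjusted p = 0.0116). H2-Oa was at -0.79 (SE 0.39, adjusted p = 0.162), with 112, 61.7 and 46.9 CPM in the 3 EV replicates against 87.5 to 159 CPM in cDC1-like cells. The members' median was -3.01, against 0.15 for all genes. Scaling mattered for this pair. With TMM factors the median of all genes moved from 0.15 to -0.14, the genes called higher and lower from 1666 and 809 to 1093 and 1304, and the members called lower from 9 to 10. WT had 10 plasmacytoid dendritic-like cells in all, so every plasmacytoid dendritic-like replicate is EV.

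In the same contrast 5 of 7 processing genes were higher in plasmacytoid dendritic-like cells, where 14.4% of all genes were called higher: Ctsl (log2 difference 6.91), Ctsd (3.71), Lgmn (3.59), Ctsb (3.42) and Ctsh (2.47). Cd83 (-3.63) was lower, and so was Cd86, with 4.47 ± 7.74 CPM against 171 ± 37.6 CPM. In transcription Irf1 (2.58) and Irf4 (85.9 ± 46.7 CPM) were higher, and Ifngr1 (-3.06), Socs1 (-2.74) and Spi1 (-2.09) were lower. Irf8, at 0.58 (adjusted p = 0.210), did not pass.

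Cd74 varied widely among the replicates of 2 monocyte classes. In classical monocyte-like cells (Ly6c2, Chil3) Cd74 was 974, 1575 and 1046 CPM in EV and 1901, 2364 and 202 CPM in WT, the last from 22 cells of h9. In Arg1 or Nos2 monocyte-macrophage-like cells it was 674 and 3926 CPM in EV and 2438 and 5208 CPM in WT. A Cd74 UMI was missing from 39.3% of EV and 38.9% of WT classical monocyte-like cells, where none of the EV and 1.52% of the WT cDC1-like cells lacked one.

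T-like cells gave the background level of Cd74 and the classical chains, and a few of them carried most of it. Cells with at least 10 Cd74 UMIs were 29 of 984 EV and 14 of 339 WT T-like cells, and they held 90.7% and 77.4% of the T-like Cd74 UMIs. These cells were chosen by their Cd74, so a fall of Cd74 without them is fixed by the choice. Cd74 then went from 426 to 43.4 CPM in EV and from 247 to 60.5 CPM in WT. H2-Aa, not used in the choice, went from 201 to 9.82 CPM and from 78.3 to 6.08 CPM. The high-Cd74 cells had a median of 16001 and 18132 UMIs, against 4495 and 6447 in the other T-like cells. At least 2 marker genes of 1 of 10 antigen-presenting classes were found in 26 of the 29 (89.7%) and 8 of the 14 (57.1%), against 89 of 955 (9.32%) and 55 of 325 (16.9%) of the rest. In EV the summed cDC1 markers stood at 68.3 CPM in the high-Cd74 cells and 3.39 CPM in the rest. C1q macrophage markers stood at 306 and 1.19 CPM. Mgl2, Cd209a and mature dendritic and Arg1 or Nos2 markers were higher there too. Plasmacytoid (68.3 and 64.9 CPM), classical monocyte (420 and 456 CPM) and non-classical monocyte markers (106 and 118 CPM) were close. B markers were at 1.71 and 10.5 CPM and T markers at 1931 and 3717 CPM. In WT, mature dendritic (133 and 265 CPM), plasmacytoid (12.1 and 74.7 CPM), both monocyte and B markers were lower in the high-Cd74 cells. The other antigen-presenting lists were higher. The part of other cells' RNA or of shared droplets in these values was not tested.

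H2-DMa, H2-Oa and H2-Ob did not follow Cd74 in T-like and NK-like cells. The high-Cd74 cells held only 20% and 12.7% of the T-like H2-Oa UMIs, 19.4% and 25% of the 31 and 8 H2-Ob UMIs, and 47.3% and 34.5% of the H2-DMa UMIs. In NK-like cells, 1 EV and 3 WT cells were high. They held 48.7% and 51.2% of the Cd74 UMIs, but 13.6% and 11.1% for H2-DMb1 and 6.25% and 0% for Ciita. Without such cells H2-Oa was at 15.3 ± 6.13 CPM in T-like and 17.1 ± 5.83 CPM in NK-like cells (n = 6 each), and H2-DMa at 28.9 ± 6.50 and 24.4 ± 4.61 CPM. NK-like cells had 25.8, 24.2 and 27.6 H2-DMa CPM in EV and 25.4, 28.6 and 15.8 CPM in WT, which overlap. Over all cells, those of high Cd74 included, there were 58.5 ± 33.4 H2-Oa UMIs per 100 Cd74 UMIs in NK-like cells and 5.58 ± 3.22 in T-like cells (SD, n = 6 each), against 0.755 in cDC1-like cells. Melanoma-like cells, by contrast, held 0 H2-Oa UMIs among 3712879 EV and 6151695 WT UMIs, which allows up to 0.808 and 0.488 CPM (3 counts per library). Without high-Cd74 cells H2-DMa was at 3.60 ± 3.77 CPM (n = 5) in melanoma-like cells. The T-like values of H2-Oa and H2-DMa are used as a comparison only. The part of free RNA in the T-like and NK-like values was not tested.

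**Figure D3:**
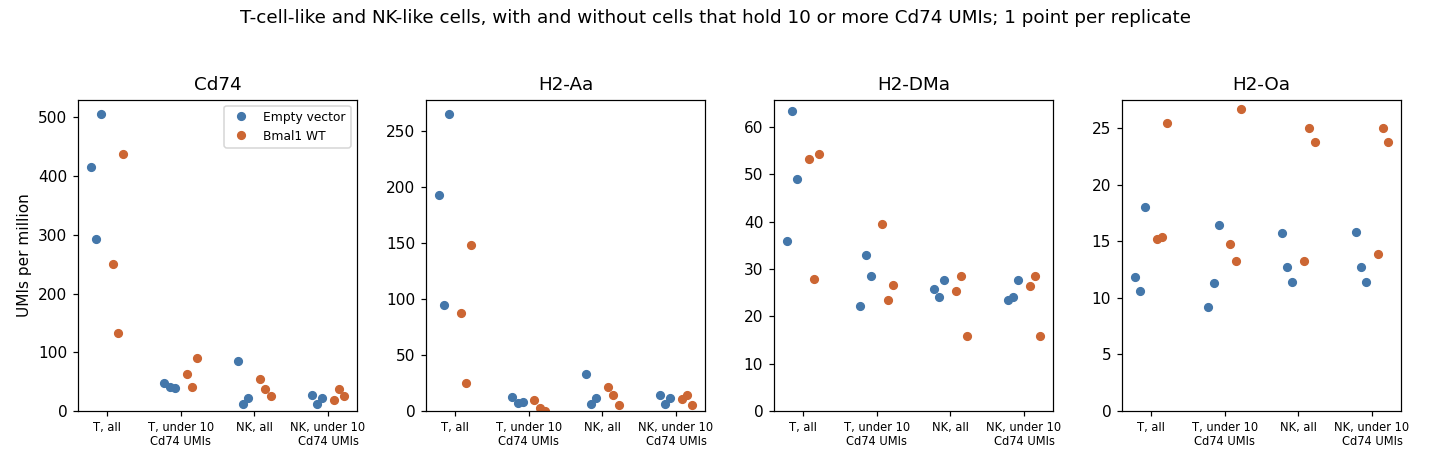
CPM of Cd74, H2-Aa, H2-DMa and H2-Oa per hashtag replicate in T-like and NK-like cells, for all cells and for cells with under 10 Cd74 UMIs. Cd74 in T-like cells drops from a mean of 339 to 53.8 CPM, while H2-Oa goes from 16.1 to 15.3 CPM. The cells left out were chosen by Cd74, so its drop follows from the choice.

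NK-like cells had less of 7 of the 10 members than T-like cells, where 13.7% of all genes were called lower. Cd74 differed by -3.10 on the log2 scale (SE 0.39, adjusted p = 6.78e-09), H2-Ab1 and H2-Aa by -3.02 each, H2-Eb1 by -2.69, H2-DMb2 by -3.42, H2-DMb1 by -1.20 and H2-DMa by -0.90. H2-Oa did not pass (SE 0.27, adjusted p = 1). Without the high-Cd74 cells the difference was -1.21 for Cd74 and 1.66 for H2-DMb1. The removed T-like cells had held most of the UMIs of both genes and were chosen by Cd74, so these values describe their weight and test nothing further. The share of cells with a Cd74 UMI, after thinning each cell to 2000 UMIs, was 8.87% of EV T-like cells (Clopper-Pearson 95% interval 7.06 to 10.96) and 12.6% of WT T-like cells (9.24 to 16.7), against 3.84% and 3.60% of NK-like cells, 90.5% and 91.3% of mature dendritic-like cells and 100% of cDC1-like cells in both. Unthinned, the T-like shares were 15.5% and 25.1%, at medians of 4607.5 and 6594 UMIs.

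Of the fibroblast markers, Pdgfra, Dcn, Col3a1, Lum, Col6a3 and Pdpn were found in most fibroblast-like cells. Dpt had 0 UMIs in EV and 1 in WT, and Clec3b had 0 in both. These cells had 1 member that stood apart from the rest, H2-Ab1. It was at 18.0 CPM in the 1 EV replicate of 10 or more cells and at 88.1, 5.83 and 29.7 CPM in WT h3, h5 and h9, from 4, 22, 2 and 10 UMIs, while Cd74 was at 0, 4, 8.74 and 5.93 CPM in the same replicates. The 22 UMIs of h3 lay in 6 of its 11 cells, with 10 in 1 cell. Over all fibroblast-like cells of both libraries, with or without a hashtag, 53 of 302 held an H2-Ab1 UMI, 100 UMIs in all, where Cd74 had 23 UMIs, H2-DMb1 41 and Ciita, H2-Oa and H2-Ob none. At 2000 UMIs a cell, 0 of 25 EV and 0 of 33 WT fibroblast-like cells had a Cd74 UMI, with intervals up to 13.7% and 10.6%.

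Against T-like cells 7 of 10 members were lower in fibroblast-like cells, where 25.5% of all genes were called lower, Cd74 by -6.02 on the log2 scale (SE 0.76, adjusted p = 1.29e-09) and H2-Ab1 by -1.97 (SE 0.60, adjusted p = 0.00502). H2-DMb1, H2-DMb2 and Ciita did not pass. Without the high-Cd74 T-like cells, H2-Ab1 turned to 1.25 (adjusted p = 0.0978), at 35.4 ± 36.4 CPM in fibroblast-like against 15.3 ± 4.26 CPM in T-like cells, so no difference from the background was shown for it. DESeq2 split the genes called in this contrast into 3131 higher and 2172 lower, against 2813 and 2957 with edgeR, and called 6 members.

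Melanoma-like cells (Sox10, Mitf) had less of all 10 members than T-like cells, where 33.0% of all genes were called lower, Cd74 by -4.86 (SE 0.46, adjusted p = 1.32e-13), H2-Aa by -4.33 and H2-Ab1 by -3.75 on the log2 scale. Cd74 was 11.2 and 19.3 CPM in EV h1 and h8 and 8.76, 18.1 and 0.825 CPM in WT h3, h5 and h9, so the groups overlapped. Of the 81 Cd74 UMIs of WT melanoma-like cells 64 were in 1 cell, and of the 57 of EV cells 22 were in 1 cell. Ciita was at 1.19 ± 1.20 CPM, and H2-Oa and H2-Ob counted 0. Without the high-Cd74 cells 5 of 10 members passed, where 64% of all genes were called. The H2-DMb1 difference was then 1.498, with 6.46 ± 3.87 CPM in melanoma-like and 2.21 ± 2.52 CPM in T-like cells. The T-like cells removed by their Cd74 had held 87.3% (EV) and 96.2% (WT) of the T-like H2-DMb1 UMIs, so this value describes their weight and is no test of melanoma-like cells.

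No member differed between WT and EV in any class tested at an adjusted p under 0.05, and few genes did at all. Marker-gated fibroblast-like, plasmacytoid dendritic-like, Cd209a dendritic-like and B-like cells had too few replicates of 10 or more cells to be tested. The genes called in all were 0 of 13868 over all cells (0.0%), 0 of 5725 in cDC1-like (0.0%), 0 of 6605 in mature dendritic-like (0.0%), 1 of 7053 in Mgl2 dendritic-like (0.0142%), 2 of 3404 in Arg1 or Nos2 monocyte-macrophage-like (0.0588%), 0 of 7014 in classical monocyte-like (0.0%), 27 of 10205 in T-like (0.265%), 57 of 9316 in NK-like (0.612%) and 0 of 10460 in melanoma-like cells (0.0%). With classes taken from clusters, C1q macrophage-like and non-classical monocyte-like cells could be tested too, with 0 genes called in each (0.0%). The members tested were 10, 10, 8, 10, 6, 7, 10, 7 and 6 in the 9 marker-gated comparisons, since the others were under 30 UMIs. At an unadjusted p under 0.05 edgeR found 3152, 480, 337, 473, 366, 588, 1981, 1223 and 368 genes in the same order, and DESeq2 called 855, 3, 2, 2, 10, 2, 253, 112 and 4 genes, none of them members. A count of 0 says that no member passed at 2 or 3 replicates a group, and not that the groups were alike.

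In mature dendritic-like cells H2-Aa had the lowest unadjusted edgeR p of the members, 0.0028. It was 1404, 1806 and 1963 CPM in EV and 1149, 804 and 1293 CPM in WT, so that the groups did not overlap. The log2 difference, WT against EV, was -0.68 (SE 0.19, adjusted p = 0.894), over alternatives -0.82 to -0.50 with adjusted p from 0.0157 to 1, the lowest without the filter on genes. H2-Ab1, at 437, 721 and 712 CPM in EV and 336, 144 and 576 CPM in WT, differed by -0.88 (SE 0.35, adjusted p = 0.894) and overlapped. Its alternatives gave -1.34 to -0.48 with adjusted p from 0.00403 to 1, again the lowest without the filter on genes. H2-Eb1 differed by -0.40 and Cd74 by -0.12 (SE 0.17, adjusted p = 0.969). H2-DMa, H2-DMb1, H2-DMb2 and H2-Oa had SEs of 0.41 to 0.70, and Ciita and H2-Ob had too few UMIs to be tested.

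In cDC1-like cells H2-Aa was 7554 and 7074 CPM in EV and 5976, 6191 and 6417 CPM in WT, a log2 difference of -0.24 (SE 0.09, adjusted p = 0.555). H2-Ab1 differed by -0.24 (SE 0.10), Cd74 by -0.20 (SE 0.09), H2-Oa by -0.50 (SE 0.26) and H2-Ob by -0.51 (SE 0.27), none past the threshold. H2-Ob was 167 and 163 CPM in EV and 130, 87.5 and 127 CPM in WT. In Mgl2 dendritic-like cells H2-Aa was 8990.4, 8452 and 9629.7 CPM in EV and 8051 and 7003 CPM in WT, a difference of -0.26 (SE 0.10, adjusted p = 0.738). H2-Oa there was 427, 352 and 389 CPM in EV and 310 and 209 CPM in WT (-0.55, SE 0.20, adjusted p = 0.738), and H2-DMa was higher in WT by 0.34 (SE 0.14, adjusted p = 0.738). EV h7 entered no cDC1-like value and WT h9 no Mgl2 dendritic-like value, since each had under 10 such cells.

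**Figure D4:**
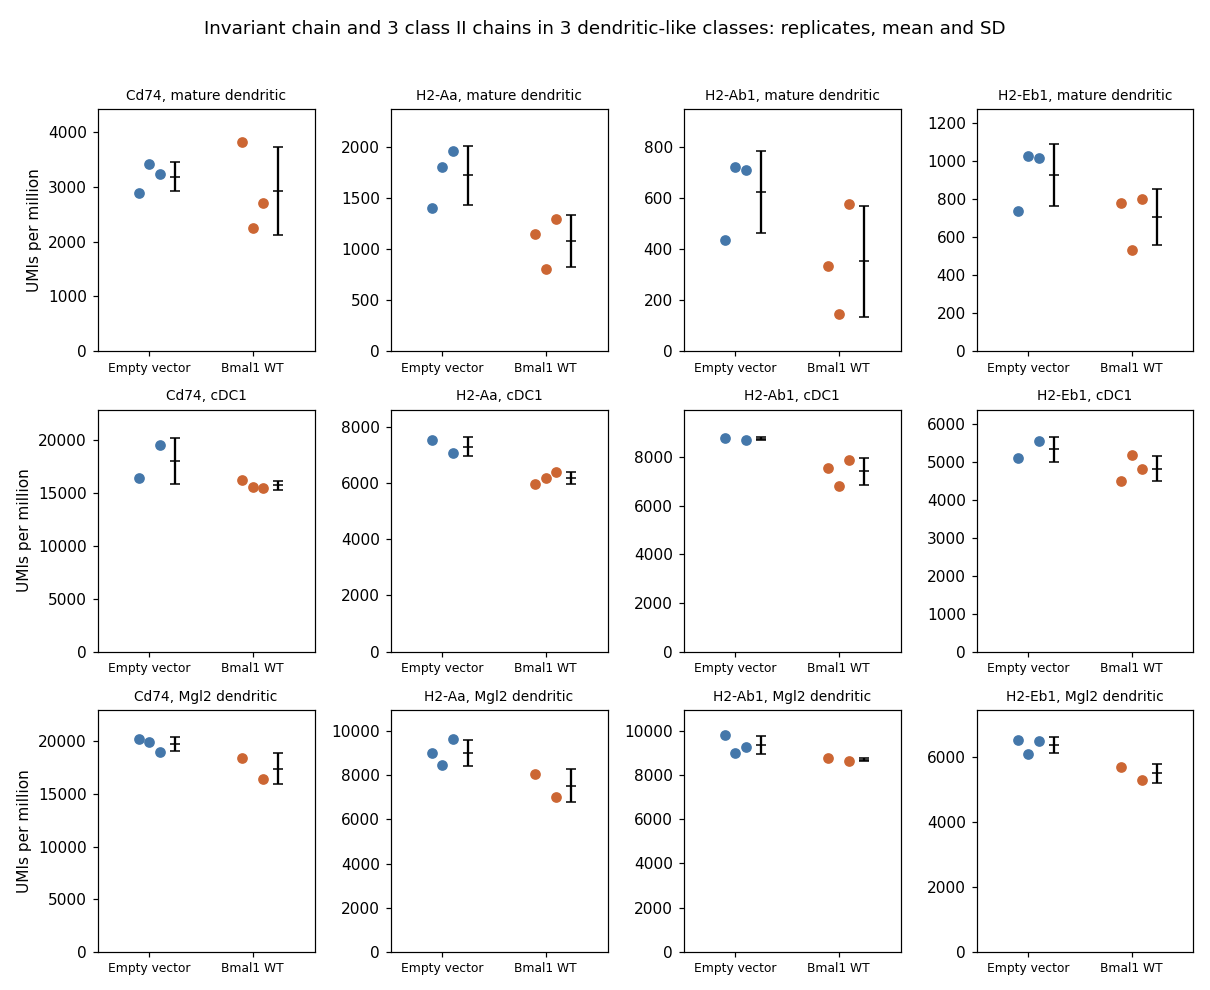
CPM of Cd74, H2-Aa, H2-Ab1 and H2-Eb1 in mature dendritic-like, cDC1-like and Mgl2 dendritic-like cells, with hashtag replicates as points and the mean ± SD of EV and WT. H2-Aa in the 3 mature dendritic-like WT replicates is 804 to 1293 CPM, below the 3 EV replicates at 1404 to 1963 CPM; no difference passed the adjusted test.

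Over all cells Cd74 differed by -0.20 (SE 0.26, adjusted p = 0.657), H2-Aa by -0.39 (adjusted p = 0.374) and H2-DMa by 0.02. In such sums fewer cells of a class and less RNA per cell cannot be told apart, and the class shares differed: cDC1-like cells were 0.962% of EV and 4.07% of WT cells. In T-like cells Cd74 differed by -0.61 (adjusted p = 0.333), and by 0.53 (adjusted p = 0.240) without the high-Cd74 cells, so its sign followed them. H2-Aa in T-like cells was at -1.18 (SE 0.47, adjusted p = 0.200). NK-like cells gave 0.13 for Cd74 and melanoma-like cells -0.58. In monocytes and macrophages the Cd74 difference was 0.73 (adjusted p = 0.742) in Arg1 or Nos2 monocyte-macrophage-like, 0.33 (adjusted p = 0.922) in classical monocyte-like, 0.52 (SE 0.24, adjusted p = 0.538) in C1q macrophage-like and 0.28 (adjusted p = 0.791) in non-classical monocyte-like cells, the last 2 from clusters. Over the alternatives Cd74 ran from -0.04 to 2.50 in Arg1 or Nos2 monocyte-macrophage-like cells, where 1 of 11 changed its sign, and from -0.49 to 0.84 in classical monocyte-like cells, where 2 of 14 did. The highest and the lowest value in the former came without EV h8 (adjusted p = 0.178) and without EV h1, and leaving out WT h3 gave 1.18 with adjusted p = 0.0494.

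None of the pathway genes passed between WT and EV in any of the 9 comparisons, with 15, 7, 5 and 1 tested over all cells from the transcription, processing, turnover and locus lists. Over all cells Irf8 differed by -0.63 (adjusted p = 0.255), Ifngr1 by -0.81 (adjusted p = 0.164), Ctsb by -0.06, Ctsl by 1.01 (adjusted p = 0.222), Cd83 by -0.54, Cd86 by -0.33 and H2-Eb2 by -0.60. The list medians over all cells were -0.48 for transcription, -0.06 for processing and -0.33 for turnover and costimulation, against -0.01 for all genes. In mature dendritic-like cells they were -0.11, 0.06 and 0.19.

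Over 26 points, each a cell class in 1 library, the log2 level of the other members was set against the mean of Cd74, H2-Aa, H2-Ab1 and H2-Eb1. Pearson's r was 0.951 for H2-DMa, 0.932 for H2-DMb1, 0.902 for Ciita and 0.882 for H2-DMb2, and lower for H2-Ob (0.683) and H2-Oa (0.554). The 5 other genes most alike were Gdi2 (0.927), Aph1c (0.921), Aif1 (0.919), Rbm47 (0.908) and Plbd1 (0.900). The points of a library share its channel and depth, so these values are descriptions and carry no test.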

How the data were processed

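The authors deposited raw counts of UMIs per gene and cell, with hashtag counts per cell, made with Cell Ranger 6.1.2 per the file headers and the mm10 build per the submitters' notes; single-cell filters and doublet removal before deposit are not given in the sources used here. Cells with at least 200 genes and at most 20% mitochondrial UMIs were kept. A cell was given to a replicate where exactly 1 hashtag passed a minimum of 17 to 159 UMIs; cells with several hashtags entered no replicate, and no doublet caller was run. Classes were gated with markers (at least 3, margin 15%) after the data had been seen. The members, marker lists, pathway lists and tests were chosen with earlier results of these data known.

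UMIs were summed per replicate and class where it held at least 10 cells. WT against EV was tested in each class with edgeR 4.0.16 (quasi-likelihood, total UMIs as library size, genes of at least 30 UMIs), and classes against each other in 1 fit of all classes with the hashtag replicate as a block (genes of at least 100 UMIs). Adjusted p-values are Benjamini-Hochberg over all genes tested, two-sided, and an SE is the log2 difference divided by the square root of its F statistic. In 3 against 3 replicates an exact permutation test cannot go below 0.10, so none was run. Shares of cells were taken at 2000 UMIs, with Clopper-Pearson intervals that cover counting error only. The text names all 10 members, the pathway genes past the threshold and the 2 with the most UMIs of each list where that list is described, and the 5 genes most alike (Pearson's r of log2(CPM + 5)). Lists for NK-like, fibroblast-like and melanoma-like against T-like cells are not described. Ifi30, H2-Ea and H2-Ea-ps were not analysed here. The values of 1 pathway gene are not reported here. Alternatives were TMM factors, no filter on genes, DESeq2 1.42.0, limma 3.58.1 on per-cell means, classes from clusters (scanpy 1.11.5), stricter gates, other cell filters, and each replicate left out. R 4.3.3 and Python 3.11.15 were used. The edgeR steps were tested on simulated data.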

Additional observations from a re-analysis of the deposited data

How the results depend on the processing

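Over all settings and values 3354 alternatives were computed, and 3143 kept their direction and their side of the threshold or stayed within the spread. Without the filter on low counts 2 members passed between WT and EV in mature dendritic-like cells (H2-Ab1 and H2-Aa, both lower in WT) and 4 in T-like cells (H2-Ab1, H2-Aa, H2-Eb1 and Cd74), of 10 tested in each. In that setting 37 of 13110 genes (0.282%) were called in mature dendritic-like cells and 901 of 16232 (5.55%) in T-like cells. The cause was not tested. Leaving out 1 replicate each gave 0 to 1 members in Arg1 or Nos2 monocyte-macrophage-like cells, the 1 being Cd74 without WT h3. The number of all genes called between WT and EV moved with the setting, from 0 to 1360 over all cells (1360 with limma on per-cell means and 855 with DESeq2), 0 to 51 in cDC1-like, 0 to 37 in mature dendritic-like, 0 to 79 in Mgl2 dendritic-like, 0 to 107 in Arg1 or Nos2 monocyte-macrophage-like, 0 to 94 in classical monocyte-like, 0 to 901 in T-like, 5 to 284 in NK-like and 0 to 4 in melanoma-like cells.

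Leaving out T-like, NK-like, fibroblast-like and melanoma-like cells of 10 or more Cd74 UMIs, an alternative chosen after seeing the data, left 2 of 10 members called for NK-like (17.5% of all genes were), 4 for fibroblast-like (49.8%) and 5 for melanoma-like (64%) against T-like cells. Of the members called with all cells it reversed H2-Aa (0.40), H2-Eb1 (0.71) and H2-DMb1 (1.66) in NK-like, H2-Ab1 (1.25) in fibroblast-like, and H2-Eb1 (0.86), H2-DMb1 (1.498) and Ciita (0.29) in melanoma-like cells. Ciita in NK-like (1.29) and H2-DMb1 in fibroblast-like cells (1.88), not called with all cells, changed sign too. The cells left out held most T-like UMIs of H2-DMb1, so these values describe their weight. With classes from clusters the Cd74 level was 120 CPM in T-like, 2498 in classical monocyte-like, 16.0 in fibroblast-like and 2387 in non-classical monocyte-like cells, and with 1 more marker per gate 4687 in the last. Thinning to 1000 UMIs gave Cd74 shares of 2.28% (EV) and 1.75% (WT) in NK-like, 5.45% and 8.26% in T-like and 73.8% and 65.9% in mature dendritic-like cells.

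No paired analysis was made because no label links an EV sample to a WT sample. Between classes, dropping the replicate block gave 4056 genes called for cDC1-like against mature dendritic-like cells, against 4038 with it, and the members called stayed at 10. Depth limits H2-Oa and H2-Ob in C1q macrophage-like, fibroblast-like and melanoma-like cells, where a replicate held 0 to 2 of their UMIs.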
